A study of Mus musculus with 4 samples.

Results

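The Usp17l genes are a family of closely related deubiquitinase genes on mouse chromosome 7. The family was taken as the Ensembl genes with the symbols Usp17la, Usp17lb, Usp17lc, Usp17ld and Usp17le. They are 5 of the 43496 Ensembl genes in the deposited count table. The same table lists 2277 copies of MERVL-int, the internal part of the endogenous retrovirus MERVL, and of MT2_Mm, its long terminal repeat (LTR). These copies include solo LTRs and partial elements. All 5 had reads in each library and all 5 passed the filter on low counts. The cells were mouse E14 embryonic stem cells, pluripotent cells (strain label 12910la) kept on gelatin in serum and LIF. Random shRNA (2 libraries, genotype label wild type) and an shRNA against MERVL (2 libraries, genotype label MERVL knocked down) were compared. Both groups received 1000 ng of a pSuper puro plasmid, followed 24 h later by 1 µg/ml puromycin for 4 days. Nothing in the labels states that a group's libraries came from separate cultures; p-values therefore measure no more than how these samples spread, and that spread may be technical.

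Deubiquitinases cut the small protein ubiquitin from other proteins and so reverse a tag that often sends them to the proteasome. The mouse Usp17l genes belong to the USP class of cysteine proteases. The first of them, DUB-1 and DUB-2 (now Usp17la and Usp17lc), were described as genes that cytokines switch on in blood cells. Members of the family are also among the transcripts of the 2-cell embryo and of the small, fluctuating share of embryonic stem cells, called 2-cell-like cells, in which MERVL is active.

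The 5 genes lay within 1612.9 kb of chromosome 7 (GENCODE positions on GRCm38, the build also called mm10). Usp17ld (103249737 to 103252505, minus strand) and Usp17lc (103415072 to 103419880, plus strand) formed a pair with 162.6 kb between them. After a gap of 1348.2 kb followed Usp17le (104768049 to 104777470, minus strand), Usp17lb (104840257 to 104842603, minus strand) and Usp17la (104857009 to 104862667, plus strand). The annotated coding sequences had 1404 bases in Usp17lb, 1578 in Usp17la, 1626 in Usp17le and 1635 in both Usp17lc and Usp17ld. Each began with a first coding exon of 28 bases. Identity between aligned coding bases was 98.4% for Usp17lc and Usp17ld, and ran from 90.5% (Usp17lb and Usp17le) to 94.4% (Usp17la and Usp17le) for the other pairs.

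How much sequence the members share bears on every count below, because a read from a shared stretch cannot be placed in a single member. The 3 lines below are 100 coding bases from GENCODE transcripts, 5′ to 3′, taken from the start of the longest run (161 bases) that is identical in Usp17lc, Usp17ld and Usp17le. Capitals mark bases that differ from Usp17lc. The stretches lie at chr7:103417809-103417908 (plus strand), chr7:104860499-104860598 (plus strand) and chr7:104841310-104841409 (minus strand) of GRCm38. Usp17ld and Usp17le hold the Usp17lc letters throughout it, Usp17la differs at 2 bases and Usp17lb at 7.
Usp17lc: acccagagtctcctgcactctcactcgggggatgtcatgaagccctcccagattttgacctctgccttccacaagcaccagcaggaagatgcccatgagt
Usp17la: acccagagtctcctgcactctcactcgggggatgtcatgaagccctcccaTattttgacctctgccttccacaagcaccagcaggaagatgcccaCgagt
Usp17lb: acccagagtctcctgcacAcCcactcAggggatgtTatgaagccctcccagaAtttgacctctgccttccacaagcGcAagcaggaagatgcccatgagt

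Over whole transcripts, sharing was concentrated in 1 pair. Of the 100-base windows in Usp17ld transcripts, 745 of 1888 (39.5%) also occurred in another member, and so did 745 of 2304 (32.3%) in Usp17lc, each time in its partner. The shares were 10.1% for Usp17lb, 5.48% for Usp17le and 3.32% for Usp17la. Windows were also found in transcripts of genes other than the 5 members. These were 90 windows of Usp17le (in Gm5053 and the pseudogene Usp17le-ps), 45 of Usp17lb (in Gm5053) and 17 of Usp17la (in Gm5053 and Adgrv1). As the sources used here give no read length, 100 bases is only a yardstick. The estimated counts showed the same split. Usp17lc and Usp17ld had counts that were not whole in each of the 4 libraries, as when a read is shared out among several genes. Usp17le had a whole count in 3 libraries, and Usp17la and Usp17lb had whole counts in all 4. The values of Usp17lc and Usp17ld are therefore the least certain of the family, and the summed count of the 5 genes, which does not depend on how reads are shared out among them, is given beside them. The sum still depends on how reads shared with genes other than these 5 were placed.

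**Figure D1:**
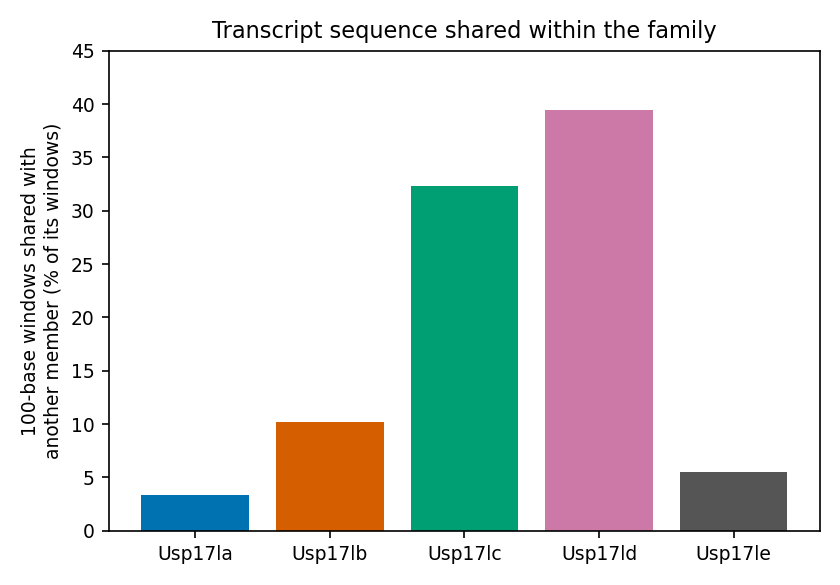
Share of each member's transcript sequence that another member also holds. Bars give the percentage of all distinct 100-base windows in a gene's GENCODE transcripts (y axis, from 0) that also occur in a transcript of another Usp17l gene. Usp17ld (39.5%) and Usp17lc (32.3%) stand above the other members, which lie at or below 10.1%.

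The members also share sequence before their RefSeq starts. RefSeq promoter sequences (GRCm38.p6), from 250 bases before to 50 after the annotated start, were matched for 4 of the 5 members. RefSeq and GENCODE starts can differ: that of Usp17lc in RefSeq lies inside the GENCODE gene given above, which begins with a longer transcript, so its stretch falls within that gene. The promoters are shown because the members varied together across the libraries. Whether these sequences have a part in that was not tested. The lines give, 5′ to 3′, the stretch around the longest string common to all 4 (29 bases), with 2 promoter motifs in capitals. These are TATAAA, the TATA box, and CCAAT, which reads ATTGG where it lies on the other strand; both strands were searched. The positions are chr7:104856825-104856983 (plus strand), chr7:104842601-104842759 (minus strand), chr7:103416463-103416621 (plus strand) and chr7:103252602-103252755 (minus strand).
Usp17la: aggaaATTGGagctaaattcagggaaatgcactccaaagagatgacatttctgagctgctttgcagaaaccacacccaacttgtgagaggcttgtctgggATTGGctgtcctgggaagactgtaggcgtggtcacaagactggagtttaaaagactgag
Usp17lb: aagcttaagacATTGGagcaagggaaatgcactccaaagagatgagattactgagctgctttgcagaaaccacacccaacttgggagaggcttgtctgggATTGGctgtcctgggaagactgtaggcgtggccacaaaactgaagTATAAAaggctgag
Usp17lc: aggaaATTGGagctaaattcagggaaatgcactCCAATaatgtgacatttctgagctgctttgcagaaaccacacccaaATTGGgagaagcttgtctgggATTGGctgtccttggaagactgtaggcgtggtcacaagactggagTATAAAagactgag
Usp17ld: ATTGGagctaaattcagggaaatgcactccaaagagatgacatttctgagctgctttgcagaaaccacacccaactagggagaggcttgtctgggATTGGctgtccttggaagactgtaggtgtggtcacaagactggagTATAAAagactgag

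CCAAT occurred in all 4 promoters, and in 37.4% of the 32851 promoters of the same length in the table. TATAAA occurred in Usp17lb, Usp17lc and Usp17ld, and in 13.6% of all promoters. In Usp17lb it began at -31 from the annotated start, in Usp17lc at -88 and in Usp17ld at -110. A match or its absence describes these letters only.

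For all 5 Usp17l genes, each MERVL shRNA library lay below each random shRNA library. Their group means differed 2.67-fold (Usp17lb) to 4.00-fold (Usp17lc), yet the random shRNA libraries differed 2.40-fold to 3.09-fold between themselves. None of the 5 passed the edgeR test over all features (0 of 5). The same test, at an adjusted p under 0.05, called 0% of the 16353 features tested lower and 0.00612% higher, which is 1 gene, Catip, named here after its value was seen. Values below are CPM, estimated counts scaled to library size by TMM, and SD is over 2 libraries per group.

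Usp17le, which the older literature calls Dub3, had the highest CPM of the members with random shRNA, while with MERVL shRNA the mean of Usp17lb was higher. In random shRNA replicate 1 it stood at 63.0 CPM and in replicate 2 at 24.1 CPM, while the MERVL shRNA libraries had 16.0 CPM (replicate 1) and 9.37 CPM (replicate 2). Random shRNA replicate 1 was far above the other 3 libraries, and the groups did not overlap. The means were 43.5 ± 27.5 CPM (SD, n = 2) and 12.7 ± 4.72 CPM (SD, n = 2). The fitted log2 fold change, MERVL shRNA against random shRNA, was -1.78 ± 0.48 (SE, adjusted p = 0.329 in edgeR).

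Usp17lb, known as Dub1a, had 55.9 and 18.2 CPM with random shRNA and 15.1 and 12.7 CPM with MERVL shRNA. Its second random shRNA library was 1.21-fold above the first MERVL shRNA library, the narrowest gap between the groups in the family. The log2 fold change was -1.42 ± 0.48 (SE, adjusted p = 0.329 in edgeR), from means of 37.0 ± 26.7 and 13.9 ± 1.69 CPM (SD, n = 2 each).

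Usp17lc, or Dub2, had 52.5 and 17.0 CPM with random shRNA and 9.26 and 8.12 CPM with MERVL shRNA. It had the widest gap between the groups, with the lower random shRNA library 1.84-fold above the higher MERVL shRNA library. Its log2 fold change was -2.01 ± 0.50 (SE, adjusted p = 0.329 in edgeR), from means of 34.8 ± 25.1 and 8.69 ± 0.804 CPM (SD, n = 2 each).

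Usp17la, or Dub1, had 33.5 and 13.0 CPM with random shRNA and 8.49 and 7.17 CPM with MERVL shRNA, which the fit gave as -1.58 ± 0.43 on the log2 scale (SE, adjusted p = 0.329 in edgeR). Its means were 23.2 ± 14.5 and 7.83 ± 0.933 CPM (SD, n = 2 each). Usp17ld, or Dub2a, had the lowest CPM of the members, not adjusted for transcript length, at 22.5 and 9.36 CPM against 6.74 and 3.80 CPM. Its means were 15.9 ± 9.29 and 5.27 ± 2.08 CPM (SD, n = 2 each), and the fitted log2 difference was -1.60 ± 0.47 (SE, adjusted p = 0.329 in edgeR).

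**Figure D2:**
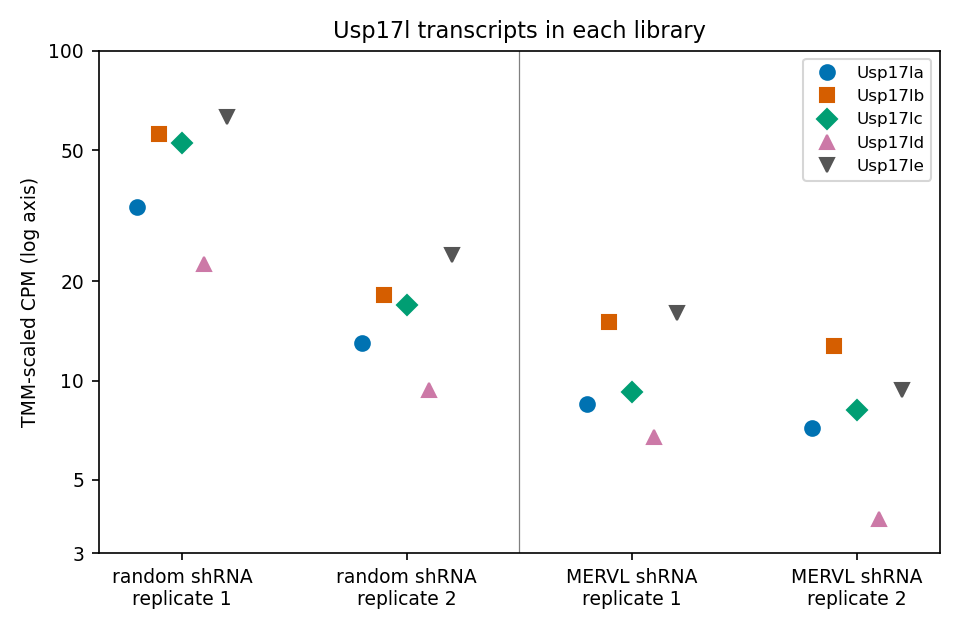
TMM-scaled CPM (y axis, log scale) of the 5 Usp17l genes in each of the 4 libraries (x axis); each point is 1 gene in 1 library. Every gene is highest in random shRNA replicate 1, between 22.5 and 63.0 CPM, and the next library for every gene is random shRNA replicate 2, between 9.36 and 24.1 CPM.

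Unadjusted p-values of the members ran from 0.00605 (Usp17lc) to 0.0241 (Usp17lb) in edgeR, so all 5 lay under 0.05, as did 8.92% of all features in the lower direction. Groups that did not overlap in this direction were found for 5 of 5 members and for 24.0% of all features. The median log2 fold change was -1.60 over the members and -0.01 over all features tested. The members share sequence and varied together, so they are not independent observations of a change. With other tools, DESeq2 called 4 of 5 lower (all but Usp17lb, adjusted p = 0.535) and limma-voom called 0 of 5. DESeq2 called 1.13% of all features lower and limma-voom 0%. With no filter on low counts edgeR called 5 of 5, and 3.76% of all features.

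Summed over the family, the estimated counts were 3564 and 973.5 in the random shRNA libraries and 884.7 and 580 in the MERVL shRNA libraries. That is 227.4 and 81.6 CPM against 55.6 and 41.1 CPM, with means of 154.5 ± 103 and 48.4 ± 10.2 CPM (SD, n = 2 each), a 3.19-fold difference. No test was run on the sum. Relative to random shRNA replicate 1, random shRNA replicate 2 stood at 35.9%, and MERVL shRNA replicates 1 and 2 at 24.5% and 18.1%. The step between the random shRNA libraries (2.79-fold) was thus larger than that from random shRNA replicate 2 to MERVL shRNA replicate 1 (1.47-fold) or to MERVL shRNA replicate 2 (1.98-fold). In bulk RNA of this kind, fewer cells that transcribe Usp17l genes and less Usp17l RNA per cell cannot be told apart.

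The size of the difference depended on single libraries. Without random shRNA replicate 1 the log2 fold changes shrank to between -0.97 (Usp17lc) and -0.38 (Usp17lb), and the log2 ratio of the summed CPM from -1.68 to -0.75. In that fit edgeR called 4 of 5 members lower (all but Usp17lb, adjusted p = 0.116), where 7.28% of all features were called lower. Without random shRNA replicate 2 the log2 fold changes ran from -2.58 (Usp17lc) to -1.99 (Usp17lb), and 5 of 5 were called lower, against 17.4% of all features. Both fits take the spread from the 2 MERVL shRNA libraries alone and assume that the lone random shRNA library varies like them. Without MERVL shRNA replicate 1 or 2 none of the 5 was called, nor was any other feature in the lower direction.

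**Figure D3:**
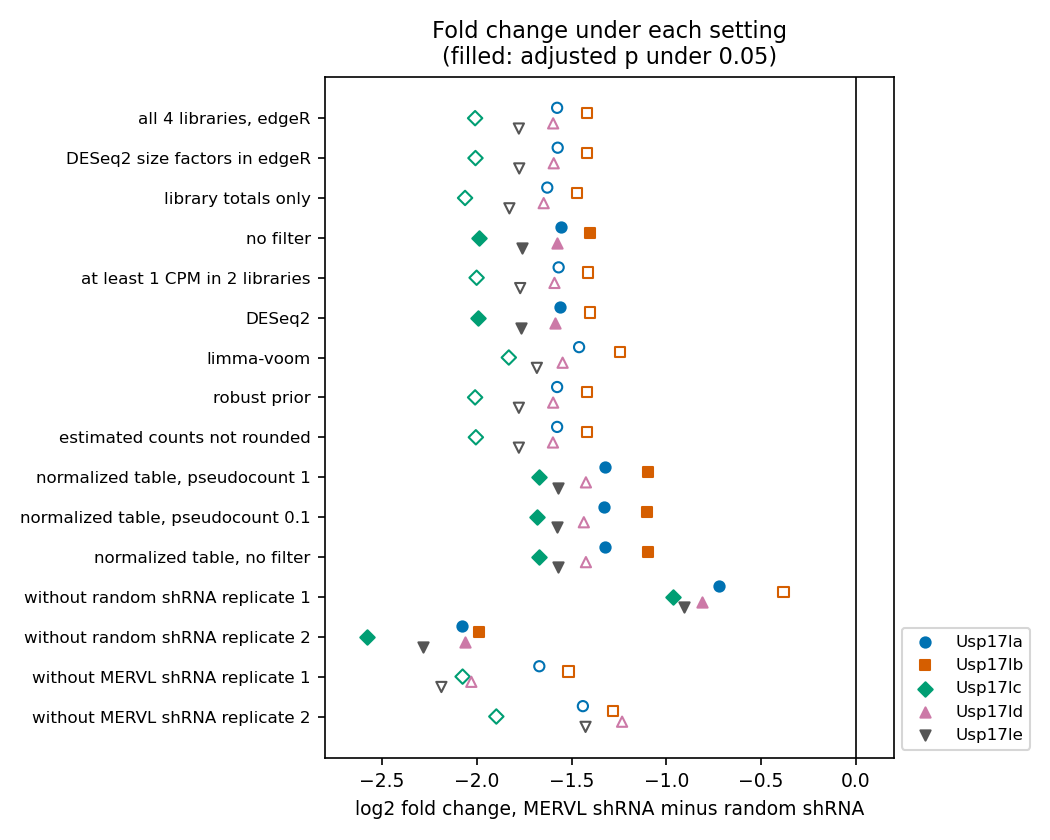
Log2 fold change of each Usp17l gene, MERVL shRNA minus random shRNA (x axis), under each setting other than the replicate block (rows). Filled symbols have an adjusted p under 0.05 and open symbols do not. Every point lies below 0, and the points move most when a random shRNA library is left out, to between -0.97 and -0.38 without replicate 1 and between -2.58 and -1.99 without replicate 2.

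Levels between members can be compared only per length of transcript. Per kilobase of merged exons, Usp17lb and Usp17le led the family in every library. In random shRNA replicate 1 they stood at 35.8 and 31.7 CPM per kb, ahead of Usp17lc (21.4), Usp17la (12.6) and Usp17ld (11.3). In random shRNA replicate 2 the order of the top pair was the other way round, with Usp17le at 12.1 and Usp17lb at 11.7 CPM per kb. Usp17lc lay between these and the lowest pair in each library. Usp17la and Usp17ld also changed places, with 3.19 and 3.39 CPM per kb in MERVL shRNA replicate 1 but 2.70 and 1.91 in replicate 2. Neighbours in this order other than Usp17lc therefore did not keep their order over the libraries. By mean CPM per kb, Usp17lb lay above 78.1% of the genes tested and Usp17ld above 53.8%.

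Usp17le made up 27.7%, 29.5%, 28.8% and 22.8% of the family's counts in random shRNA replicates 1 and 2 and MERVL shRNA replicates 1 and 2. The share of Usp17lb was 24.6% (95% Wilson interval 23.2% to 26.0%) and 22.3% (19.8% to 25.0%) with random shRNA. It was 27.1% (24.3% to 30.1%) and 30.9% (27.2% to 34.7%) with MERVL shRNA, so the groups did not overlap. The interval of MERVL shRNA replicate 2 lay above those of both random shRNA libraries, and that of replicate 1 overlapped them. For Usp17lc, which was lower in both MERVL shRNA libraries, the shares were 23.1% (21.7% to 24.5%) and 20.8% (18.4% to 23.5%) against 16.6% (14.3% to 19.2%) and 19.7% (16.6% to 23.1%). Shares overlapped between the groups for Usp17le and Usp17la (14.7% and 15.9% against 15.3% and 17.4%). They also did for Usp17ld (9.90% and 11.5% against 12.1% and 9.31%). The shares of Usp17lc and Usp17ld depend on how reads were shared out between them. In CPM, a different measure, the groups did not overlap in 24.0% of all features in the lower direction and 22.2% in the higher. No such background was computed for shares within a family. These shares are bound to each other, as a higher share of any member leaves less for the rest. The Wilson intervals cover counting error only, and no test between the groups was run. Between the MERVL shRNA libraries, replicate 1 exceeded replicate 2 by 1.77-fold in Usp17ld and 1.71-fold in Usp17le, and by 1.14-fold to 1.19-fold in the other 3 genes.

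The authors' normalized table gave another picture of the random shRNA pair. In it Usp17le had scores of 507 and 583 with random shRNA and 242 and 137 with MERVL shRNA, and Usp17lc had 383 and 450 against 141 and 119. For all 5 genes random shRNA replicate 1 lay slightly below replicate 2, at 0.851 to 0.901 times its score. In CPM it was 2.40 to 3.09 times higher. Ratios within the MERVL shRNA pair were nearly the same in both tables, for example 1.71-fold in CPM and 1.77-fold in the scores for Usp17le. Group means of the scores differed 2.13-fold to 3.20-fold. Tested with limma on log2(score + 1), 4 of 5 members were called lower, all but Usp17ld (adjusted p = 0.0535), and 14.5% of all features in that table were called lower (14.1% with a pseudocount of 0.1, again with 4 of 5 members). The sources used here do not give the method behind the scores. A test on them uses a spread between random shRNA libraries that is smaller than in the estimated counts.

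**Figure D4:**
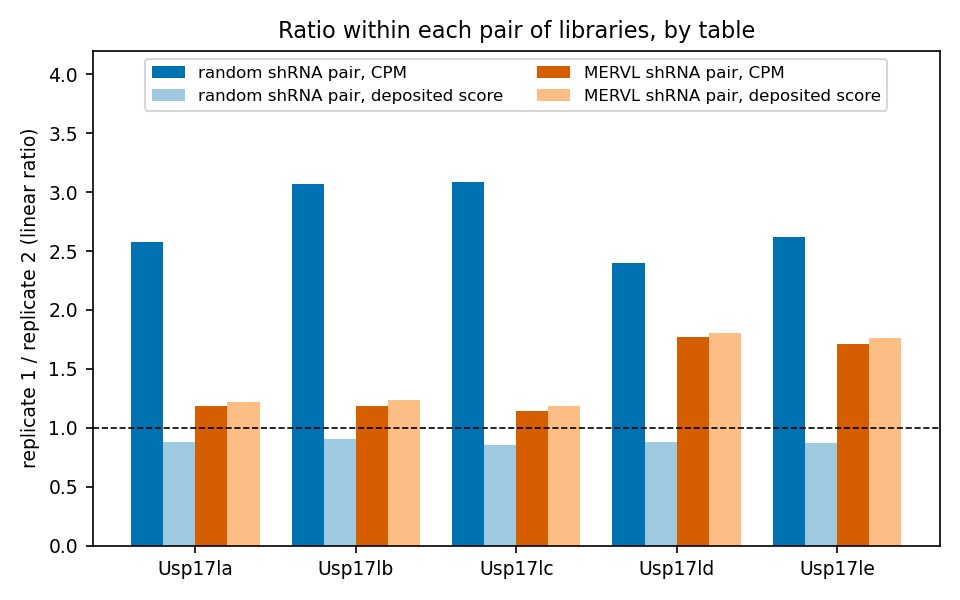
Ratio of replicate 1 to replicate 2 within each group (y axis, linear, from 0) for the 5 Usp17l genes, from TMM-scaled CPM and from the deposited scores; the dashed line marks equal libraries. The random shRNA pair is at 2.40 to 3.09 in CPM and at 0.851 to 0.901 in the scores.

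RNA summed over all 2277 MERVL-int and MT2_Mm copies followed a similar course. It stood at 30.8%, 24.95% and 12.3% of random shRNA replicate 1 in random shRNA replicate 2 and MERVL shRNA replicates 1 and 2. The levels of this sum were 4662, 1434, 1163 and 573.8 CPM, with random shRNA replicate 1 first. The sum mixes internal and LTR copies, so it is not the RNA of full MERVL elements alone. Zscan4c, a telomere and genome stability factor of 2-cell-like cells, stood at 438.3, 123.9, 101.3 and 53.7 CPM, and Zscan4d at 332.5, 74.6, 63.7 and 38.0 CPM. The 2-cell-like zinc finger gene Zfp352 had 6.89, 2.10, 1.38 and 0.426 CPM. All of these kept the order of libraries seen in the summed Usp17l counts. The last library was at 18.1% of the first for Usp17l and at 6.18% for Zfp352. These genes and the Usp17l genes come from the same libraries, so the likeness is a description.

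**Figure D5:**
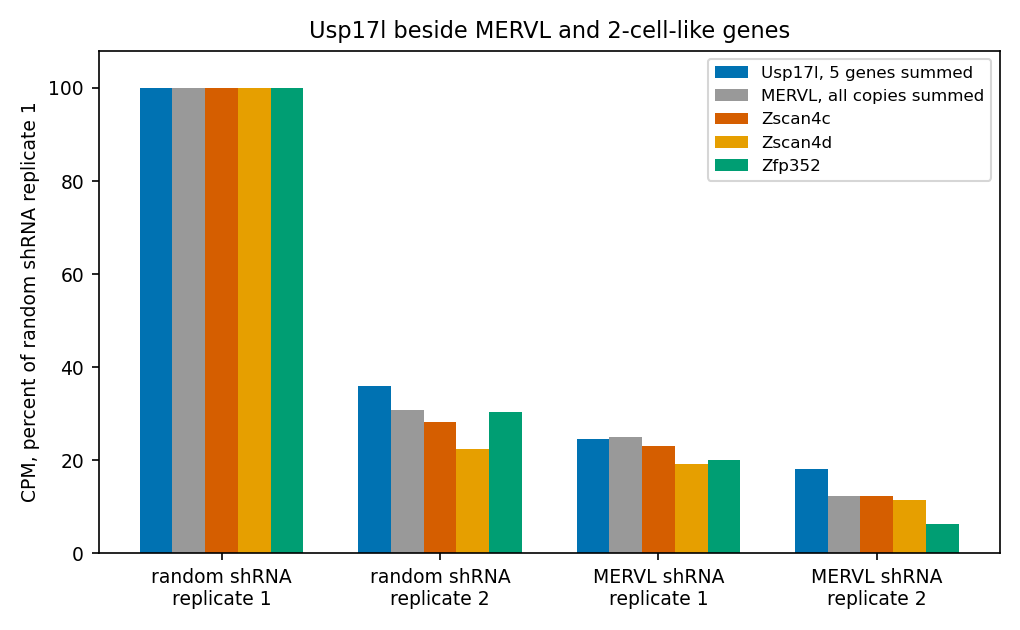
CPM in each library as a percentage of random shRNA replicate 1 (y axis, from 0). Shown are the 5 Usp17l genes summed, all MERVL-int and MT2_Mm copies summed (labelled MERVL), Zscan4c, Zscan4d and Zfp352. Random shRNA replicate 2 holds 22.4% to 35.9% and the MERVL shRNA libraries 6.18% to 24.95% of the first library.

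A list of 36 other genes of the 2-cell-like state gave the context of the family. Of these, 33 were matched and 29 tested, and 0 passed the edgeR test in either direction, while 23 had an unadjusted p under 0.05 in the lower direction and 0 in the higher, where 8.92% of all features had such a p in the lower direction. Both MERVL shRNA libraries lay below both random shRNA libraries in 24 of 29, against 24.0% of all features. The median log2 fold change was -2.003. Several genes of the list belong to the same families, such as Zscan4, Tcstv, Tdpoz and Trim43. How much sequence they share was not measured, and the 29 are not independent observations of a change. The smallest p belonged to Gm13119 (-1.31 ± 0.23, adjusted p = 0.283), Tcstv1 (-5.56 ± 1.14, adjusted p = 0.316) and Gm13078 (-2.23 ± 0.46, adjusted p = 0.318), each value a log2 fold change ± SE from edgeR. Gm13119, of the Prame-like family, had 38.6 and 26.0 CPM against 14.1 and 11.99 CPM, so its random shRNA libraries differed less (1.48-fold) than those of the Usp17l genes. Without random shRNA replicate 1 the median of this list was -0.84.

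Likeness to the family was measured as the root mean square distance between log2 CPM profiles over the 4 libraries, each centred on its mean, among 14501 genes with at least 1 CPM on average. The nearest gene to the summed Usp17l counts was Trim75, of the tripartite motif family, with 16.7, 5.28, 3.83 and 2.89 CPM and a distance of 0.06 log2 units. Trim43a of the same broad family, Ddr2, a collagen receptor kinase, Stox1, a transcription factor, and C130026I21Rik followed at 0.07 to 0.11. The members themselves lay 0.09 (Usp17la) to 0.17 (Usp17lb) from their sum. Of the 28 genes of the 2-cell-like list that could be compared, 13 were among the 100 nearest of the 14501. Trim43a belongs to that list. The distance also grows when a gene changes in the same direction by more. Tcstv1 of the same list, with 17.2, 2.31, 0.126 and 0.284 CPM, lay at 1.69 and rank 14416.

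Other deubiquitinases of the USP family were, in the median, level between the groups. Of 50 such genes 48 were tested, none passed the edgeR test, and the median log2 fold change was -0.03 with 26 of 48 negative. At an unadjusted p under 0.05 there were 2 lower and 1 higher, where 13.6% of all features had such a p in either direction. The groups did not overlap in 10 genes that were lower and 9 that were higher with MERVL shRNA, against 24.0% and 22.2% of all features. Usp49, a histone deubiquitinase, had 18.9 and 20.3 CPM with random shRNA and 31.2 and 27.0 CPM with MERVL shRNA (log2 fold change 0.57 ± 0.16, edgeR adjusted p = 0.329). Usp2 was at -0.69 ± 0.24 and Usp40 at -0.47 ± 0.17, with edgeR adjusted p-values of 0.337 and 0.340. The USP gene nearest in profile was Usp26, an X-linked gene of the testis, at a distance of 0.56 and rank 428 among all genes, with 5.93, 4.11, 4.34 and 1.84 CPM. Usp54, Usp27x, Usp2 and Usp29 were next, at 0.63 to 0.74.

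The proteins that human USP17 is reported to act on, or that lie downstream of these, were looked at through 10 mouse genes. They include the protease Rce1, which processes Ras proteins, the cell cycle phosphatase Cdc25a, and the RNA sensor Ddx58. Of the 10 genes 9 were tested and none passed edgeR, with a median log2 fold change of -0.01 and 1 unadjusted p under 0.05, a share near the 13.6% of all features in either direction. That was Ddx58, at 26.5 and 23.5 CPM with random shRNA and 32.9 and 37.0 CPM with MERVL shRNA (0.48 ± 0.16, edgeR adjusted p = 0.329). Elk1 had 0.36 ± 0.17 and Cdc25a -0.27 ± 0.18. Ifih1 was too low to be tested. These are RNA levels and say nothing of protein or ubiquitin.

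Most annotated genes close to the Usp17l genes had no reads. Within 250 kb of a member the annotation listed 74 other genes, of which 65 were olfactory receptor genes, the receptors of the nose. Of the 74, 68 had no read in any library, among them 62 of the 65 olfactory receptor genes. Over the whole series, 27235 of 45773 features had a rounded count above 0. MERVL-int and MT2_Mm copies in this region, and the rest of the large gap, were not looked at. Only 1 neighbour was tested, the processed pseudogene Gm5900, with 4.12 and 5.32 CPM against 4.84 and 6.70 CPM (log2 fold change 0.29 ± 0.32, edgeR adjusted p = 0.760). The pseudogene Usp17le-ps, in the gap between Usp17lc and Usp17le, had 2, 1, 2 and 1 reads in the libraries in the order used above.

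Libraries held 11628887 to 16067854 estimated counts. Of 8 embryonic stem cell markers, 8 were above 1 CPM in every library (summed 7227 to 8363 CPM with random shRNA, 8583 to 9303 with MERVL shRNA). Pou5f1 and Nanog had log2 fold changes of 0.23 ± 0.16 and 0.04 ± 0.24 (edgeR adjusted p = 0.604 and 0.965). Of 8 feeder or fibroblast markers, 4 (Col3a1, Postn, Lum and Dcn) were at 0 everywhere, and the sum was 30.9 and 41.4 CPM with random shRNA against 18.5 and 15.3 CPM with MERVL shRNA. Its part in the Usp17l result was not tested. Of 5 blood markers none reached 1 CPM in every library, and their sum was 1.70 to 2.77 CPM. Summed primitive endoderm (13.6 to 17.7 CPM), trophectoderm (32.4 to 52.8 CPM) and neural markers (90.0 to 159.6 CPM) overlapped between the groups.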

How the data were processed

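RNA-seq of 4 libraries, 2 per group, was analysed from 2 deposited tables. Groups and replicate numbers came from the sample titles. Per the submitters' processing notes, Trim Galore, HISAT2 and mm10 were used; the sources used here give no versions, counting program, strand setting or treatment of reads that map to several genes. The first table holds the authors' estimated counts for 45773 features, of which 36.9% to 39.1% of the nonzero values per library were not whole. The second holds scores that the authors normalized and rounded, for 17823 features; how is not given.

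Estimated counts were rounded and tested by quasi-likelihood F test in edgeR 4.0.16 under R 4.3.3 (TMM, filterByExpr), MERVL shRNA against random shRNA, 2-sided, no replicate term. It covered 15735 genes and 618 MERVL-int and MT2_Mm copies, with Benjamini-Hochberg adjustment over all of them and a threshold of 0.05. Each SE was computed from the F statistic. CPM uses unrounded counts. Scores were tested with limma 3.58.1. Alternatives were DESeq2 1.42.0, limma-voom, other scalings, filters and priors, a replicate block, and each library left out. Of these tests, only the edgeR quasi-likelihood test without a replicate term was checked on simulated counts.

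Symbols matched 42329 Ensembl identifiers (GENCODE M21). Coding sequences were aligned with MAFFT 7.526. Named genes were all 5 members, up to 3 genes per list with the smallest p, the 5 genes and the 5 USP genes nearest in profile (prior count 1, mean of at least 1 CPM), and Zscan4c, Zscan4d, Zfp352, Pou5f1 and Nanog. The planned naming of genes by protein similarity was not run, as no protein sequences were used here. Members and lists were chosen with earlier results of these data known.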

Additional observations from a re-analysis of the deposited data

How the results depend on the processing

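All 5 Usp17l genes kept a negative log2 fold change under each of the 16 alternatives, from -2.58 to -0.38. The number called was 0 of 5 with the edgeR test, and also with DESeq2 size factors, library totals, a filter of at least 1 CPM in 2 libraries, a robust prior, unrounded counts and limma-voom. It was 5 with no filter, 4 with DESeq2, 4 from the normalized table (with either pseudocount, and with no filter, since the filter removed nothing there), and 0 to 5 with a library left out. The cause was not tested. With the replicate number as a block 5 of 5 were called (adjusted p from 0.00217 for Usp17le to 0.0236 for Usp17lb). Under this replicate block 628 features (3.84%) were lower and 110 higher, and 22 of 29 genes of the 2-cell-like list were lower. Nothing in the labels ties libraries of the same number together, and the deviations of same-numbered libraries correlated at 0.25 over 16353 features, with only 2 pairs. Over all features, 0 were called lower and 1 higher in edgeR, 1023 and 270 with no filter, 158 and 70 with DESeq2, 0 and 0 with limma-voom, 2581 and 2338 from the normalized table with or without its filter, 2513 and 2308 with a pseudocount of 0.1, and from 0 to 2985 and from 2 to 2557 with a library left out. Of the 2-cell-like genes, edgeR called 0 lower, against 26 with no filter, 8 with DESeq2, 20 from the normalized table with or without its filter, 18 with a pseudocount of 0.1 and 0 to 27 with a library left out, when their median ran from -2.59 to -0.84. Of the other USP genes 8 were called in each fit of the normalized table and 0 to 11 with a library left out. The 8 were out of 48 genes, in a table where 2581 of 17823 features were called lower and 2338 higher (pseudocount 1). The 11 were out of 49 genes, without random shRNA replicate 2, the left-out fit that also called the most features. Both were smaller shares than over all features. The median log2 fold change of the other USP genes was -0.026 in edgeR, -0.0834 with library totals, and ran from -0.0191 to 0.0215 with a library left out. The log2 ratio of the summed Usp17l CPM ran from -2.23 to -0.75 with a library left out. With 2 libraries per group and 2.40-fold to 3.09-fold gaps between the random shRNA libraries, the number of libraries limits the precision of these values.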
